A study of Canis lupus familiaris with 29 samples.

Results

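PENK, NPY, GAL, VIP, ADCYAP1 and TAC1 encode the precursors of small peptides that chromaffin cells can store and release together with catecholamines. These genes were chosen by name, with earlier results of these data known. Of the 6 genes, 5 were found by name in a table of 30951 genes. Of these, 18239 carried a name and 24051 were counted at all. ADCYAP1, which encodes the peptide PACAP, was not found by name, so it has no value here.

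A chromaffin cell makes each peptide as part of a longer precursor, which enters the secretory granules and is there divided by prohormone convertases, trimmed by carboxypeptidase E and often amidated at its end. PENK yields the enkephalins, which act on opioid receptors, and these are among the classic granule peptides of the adrenal medulla. The released peptides act on G protein-coupled receptors on nearby cells or the same cell, and peptidases on cell surfaces degrade them.

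RNA was sequenced from 10 samples of normal adrenal medulla (NAM) of healthy research dogs and from 19 pheochromocytomas and paragangliomas (PPGLs), tumors of chromaffin cells inside or outside the adrenal gland, of client-owned dogs. The authors divided the tumors into 7 of PPGL group 1 and 12 of PPGL group 2 after a principal component analysis of these same samples, so p-values between the groups are descriptive. No animal was treated for the experiment, and the labels give neither age, breed nor genotype of a sample, nor which tumors were adrenal. Tumors were collected at surgery or after euthanasia in several clinics, and no NAM came from a client-owned dog, so tissue and kind of dog cannot be told apart.

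Total counts on exons ran from 19258054 to 35918182 in NAMs (median 25494016.5). They ran from 18493540 to 31919833 in group 1 (median 20825468) and from 18208718 to 24569667 in group 2 (median 22051743). Levels are given as CPM, the counts of a gene brought to one common library total after scaling by the trimmed mean of M-values (TMM). The limit that a count of 0 allows was taken as 3 counts in a library, which is 0.0779 to 0.164 CPM in NAMs, 0.0895 to 0.175 CPM in group 1 and 0.116 to 0.169 CPM in group 2. Such limits and all intervals of shares cover counting error only.

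The tissue labels were checked against markers fixed for each cell type. All 11 chromaffin markers were found, and their summed level was 17832 to 97042 CPM in NAMs (median 32317), 7818 to 118555 CPM in group 1 (median 34417) and 20783 to 103006 CPM in group 2 (median 49536). CHGB, a granule protein, was the most abundant of them. The sums of the 3 groups overlapped widely, but single markers were low or nearly missing in some tumors of both groups. In PPGL group 1 samples 3 and 5, TH, the rate-limiting enzyme of catecholamine synthesis, was at 10.8 and 2.15 CPM against a lowest NAM of 1057 CPM. DDC, the next enzyme of that synthesis, stood at 0.285 and 0.358 CPM in those same tumors. Sample 7 of group 1 had CHGB at 27.1 CPM against a lowest NAM of 5688 CPM, while its TH level was 1382 CPM. In group 2, sample 7 had TH at 32.3 CPM, and sample 11 had SLC18A1, a vesicular monoamine transporter, at 4.24 CPM against a lowest NAM of 356 CPM.

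NAMs also held adrenal cortex. The summed level of the 10 cortical markers found of 11 was 14094 to 69034 CPM in NAMs, with CYP17A1 the most abundant, against 92.0 to 1169 CPM in group 1 and 255 to 34400 CPM in group 2. Every tumor but PPGL group 2 sample 10 lay below every NAM. Of the 10 markers, 9 were lower in PPGLs by the test described next, with a median log2 fold change of -3.19. The mean log2 level of these markers, the cortical score, was 9.31 to 11.49 in NAMs, -0.19 to 4.07 in group 1 and 3.40 to 10.34 in group 2. A fit with this score as a covariate is given beside the calls it ended or added. Since no tumor of group 1 came near a NAM in cortical score, the covariate and that group can hardly be told apart. A call lost in this fit thus does not show that the difference is gone. A call gained in it is a description too, since the score also differed between the tumor groups (means of 1.54 and 7.08).

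Differences are given as log2 fold changes with their standard error (SE) from edgeR's quasi-likelihood (QL) test, fitted on all genes that passed a low-count filter and adjusted over them by the Benjamini-Hochberg method. A gene was called at an adjusted p under 0.05 against NAM and under 0.1 between the tumor groups. PPGLs against NAMs asks what separates tumor from normal tissue, and group 1 against group 2 what separates the tumors. All 5 neuropeptide genes passed the filter in every comparison.

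**Figure D1:**
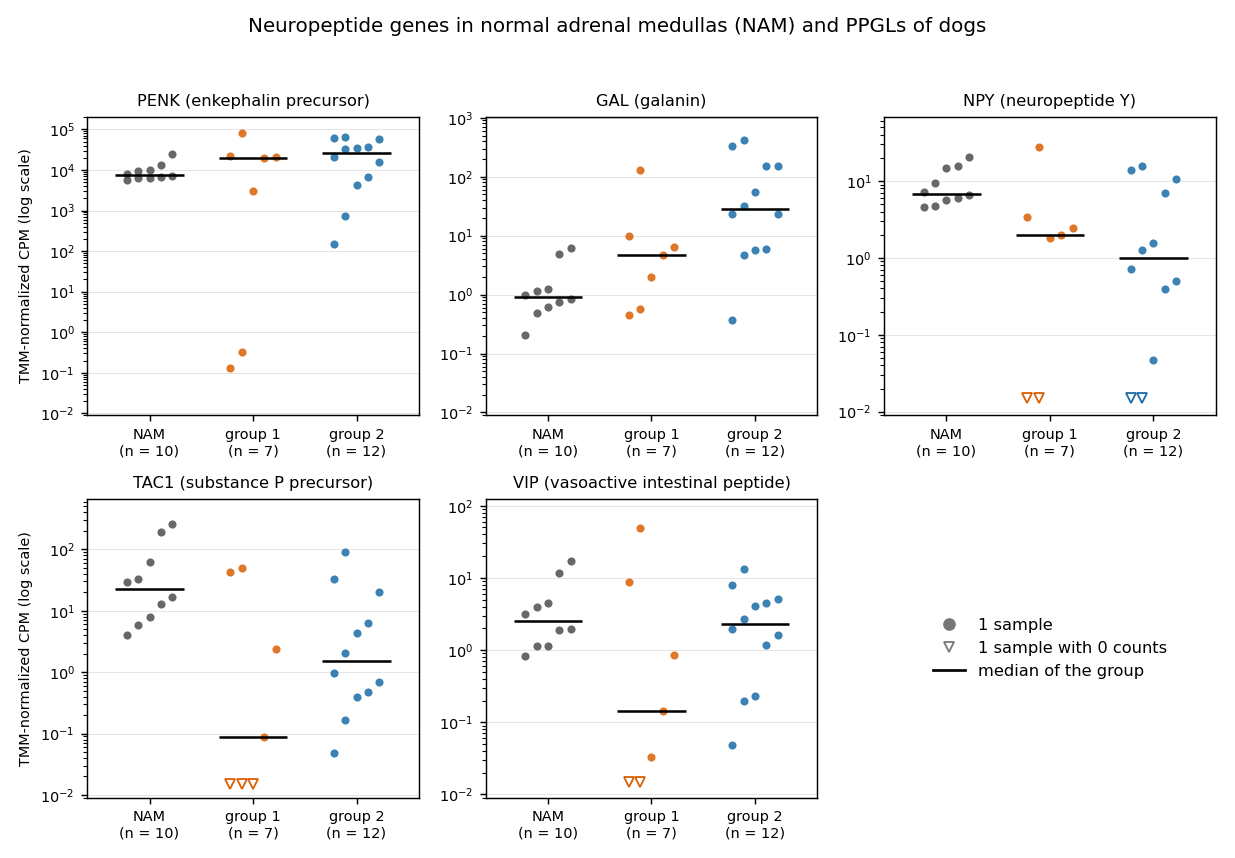
Each point is 1 sample, placed by group on the horizontal axis and by TMM-normalized CPM on a logarithmic vertical axis, and the line is the group median; open triangles are samples with 0 counts. PENK reached 82754 CPM in PPGL group 1 but lay at 0.134 CPM in another tumor of that group, and GAL lay above every NAM in 11 of 19 PPGLs.

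PENK lies on chromosome 29 of CanFam3.1 from 7757857 to 7762398 on the minus strand (ENSCAFG00000007063). Its level in NAMs was 5719.8 CPM at the lowest, 7542 CPM at the median and 24962 CPM at the highest. In group 1 it was 0.134, 19776 and 82754 CPM, and in group 2 it was 154, 26596 and 64536 CPM. The tumors lay on both sides of the normal samples: 1 tumor of group 1 and 6 of group 2 were above every NAM, and 3 of each group were below every NAM. The log2 fold change of PENK in PPGLs was 1.39 (SE 0.92, QL adjusted p = 0.240, 95% confidence interval -0.41 to 3.18), which did not pass. A mean of tumors this far apart describes few of them.

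PENK spread more widely over the tumors than over the NAMs. The standard deviation (SD) of log2 CPM of PENK over the 19 PPGLs was 5.41, rank 1 of the 14766 genes tested, where the median gene had 0.66. With a prior count of 0.5 in place of 2 its rank was 3. Among NAMs its SD was 0.65, above that of 79.9% of genes. Most of the spread lay in group 1, with an SD of 7.91 (n = 7, rank 1) against 2.76 in group 2 (n = 12, rank 88, and 212 with the other prior count). Without the 2 lowest tumors of each group the SD was 1.70 in group 1 (n = 5) and 1.35 in group 2 (n = 10), so the lead of group 1 rested largely on samples 2 and 7. The other neuropeptide genes also varied widely over the 19 PPGLs, at ranks 39 (TAC1), 90 (GAL), 174 (NPY) and 198 (VIP) with a prior count of 2. In group 2, TAC1, GAL and NPY ranked above PENK, at 55, 63 and 80, and VIP below it at 440. These ranks are a description, with no test.

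As a share of all counts, PENK took 0.559% to 2.14% of a NAM library (median 0.687%). In PPGL group 1 sample 6 it took 7.67% (1418442 counts, exact Clopper-Pearson 95% confidence interval 7.66% to 7.68%) and was the most counted gene. It ranked 1 by count in 1 tumor of group 1, 3 tumors of group 2 and 0 NAMs, and was among the 10 most counted genes in 4 NAMs, 4 tumors of group 1 and 10 of group 2. At the other end, sample 2 of group 1 had 7 counts, a share of 3.54e-05% (exact interval 1.42e-05% to 7.29e-05%). Sample 7 had 4 counts, a share of 1.62e-05% (4.40e-06% to 4.14e-05%).

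Both of these tumors kept transcripts of DBH, which makes noradrenaline, at 17186 and 5204 CPM, and of DDC, at 739 and 302 CPM. PNMT, which turns noradrenaline into adrenaline, was at 5827 CPM in sample 2 but at 11.6 CPM in sample 7, against a lowest NAM of 1602 CPM. The granule protein SCG2 was low in both, at 31.9 and 67.7 CPM against a lowest NAM of 866 CPM, whereas CHGB was at 21674 CPM in sample 2 and 27.1 CPM in sample 7. Samples 3 and 5 of group 1 had nearly no TH or DDC transcripts but PENK at 21522 and 22442 CPM, with DBH at 2562 and 2166 CPM. In bulk tissue, fewer cells of a type and less RNA per cell cannot be told apart. In group 2 the lowest PENK levels were 154 CPM in sample 10 and 717 CPM in sample 6, with DBH at 13958 and 15058 CPM.

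GAL encodes galanin, a peptide of nerves and endocrine cells, and lies on chromosome 18 from 49240437 to 49246950 on the minus strand (ENSCAFG00000010772). It ran from 0.204 CPM to 6.25 CPM in NAMs with a median of 0.908 CPM. The lowest, median and highest levels were 0.444, 4.63 and 130 CPM in group 1 and 0.371, 27.8 and 418 CPM in group 2. It lay above every NAM in 3 of 7 tumors of group 1 and 8 of 12 of group 2, and no tumor was below every NAM. The highest were samples 12 and 8 of group 2 at 418 and 331 CPM, while sample 11 of that group was within the range of NAMs at 0.371 CPM.

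GAL was the 1 neuropeptide gene of 5 that rose in PPGLs, by a log2 fold change of 5.34 (SE 1.16, QL adjusted p = 0.000701, 95% confidence interval 3.07 to 7.61). The other 4 were not called, and 2 of the 5 had an unadjusted p under 0.05. Of all 14766 genes tested, 37.5% were called in this comparison with 22.3% higher and 15.2% lower, so 1 of 5 is no more than the share of all genes. The median log2 fold change of all genes was 0.13. Leaving out any 1 of the 29 samples moved the GAL value between 4.89 and 5.82, each time past the threshold, and with the cortical covariate it was 6.47 (QL adjusted p = 0.00117). By the Mann-Whitney U-test its adjusted p was 0.0187.

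Set against NAMs one at a time, the groups share the same 10 NAMs and so are not independent. GAL was the 1 gene of 5 called in each, where 35.1% of genes were called for group 1 (21.0% higher, 14.1% lower) and 32.9% for group 2 (18.4% higher, 14.5% lower). Its log2 fold change was 3.65 in group 1 (SE 1.10, QL adjusted p = 0.0105) and 5.83 in group 2 (SE 1.15, QL adjusted p = 0.000399). With the cortical covariate the group 1 value was 1.80 (QL adjusted p = 0.930), so that call was lost, and the group 2 value was 5.35 (QL adjusted p = 0.0289). The group 1 value rested on sample 5 at 130 CPM, since the other 6 tumors were at 0.444 to 9.98 CPM and without it the value was 1.18 and did not pass (QL adjusted p = 0.356). In group 2 the call held whichever 1 sample was left out (5.34 to 6.31). In the fit with the covariate, 11 of 15201 genes were called for group 1. Whether GAL rose more in group 2 than in group 1 is answered by the difference of the groups, which did not pass.

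NPY encodes neuropeptide Y, a peptide stored with noradrenaline in sympathetic nerves and chromaffin cells (chromosome 14, 37823861 to 37831443, plus strand, ENSCAFG00000002801). Its lowest, median and highest levels were 4.63, 6.86 and 20.3 CPM in NAMs, 0, 2.00 and 27.5 CPM in group 1, and 0, 0.996 and 15.7 CPM in group 2. It lay below every NAM in 6 of 7 tumors of group 1 and 8 of 12 of group 2, while sample 1 of group 1 was above every NAM. At most 3 counts were found in 2 and 3 tumors of these groups. The QL test, which compares means, gave a log2 fold change of -1.02 (SE 0.81, QL adjusted p = 0.336), and the rank-based Mann-Whitney U-test an adjusted p of 0.0282.

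TAC1, the precursor of substance P and neurokinin A, is on chromosome 14 from 22632642 to 22640258 on the plus strand (ENSCAFG00000002207). NAMs differed widely among themselves, with 4.05 CPM at the lowest, 22.9 at the median and 262 at the highest. In group 1 the corresponding levels were 0, 0.0887 and 49.2 CPM, and in group 2 they were 0.0481, 1.495 and 90.5 CPM. No tumor was above every NAM and 12 of 19 were below every NAM, 5 of group 1 and 7 of group 2. In 4 tumors of group 1 and 2 of group 2 at most 3 counts were found. The log2 fold change was -2.23 (SE 0.99, QL adjusted p = 0.0758, 95% confidence interval -4.18 to -0.29), which did not pass. Without PPGL group 2 sample 9, which had the highest level of the tumors, it was -2.79 and passed (QL adjusted p = 0.0254), and without NAM sample 3 it was -1.60 (QL adjusted p = 0.225). The Mann-Whitney U-test gave an adjusted p of 0.0230.

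VIP encodes vasoactive intestinal peptide, which relaxes vessels and promotes secretion (chromosome 1, 42941224 to 42950700, plus strand, ENSCAFG00000000538). It ran from 0.837 CPM to 17.3 CPM in NAMs with a median of 2.55 CPM. In group 1 the lowest, median and highest levels were 0, 0.141 and 49.2 CPM, and in group 2 they were 0.0481, 2.33 and 13.1 CPM. Group 1 held both extremes, with at most 3 counts in 4 of 7 tumors and the highest level of the series in sample 6. The log2 fold change in PPGLs was 0.17 (SE 0.89, QL adjusted p = 0.899) and turned to -0.70 without that sample. The same sample also had the highest PENK level of the series and the highest summed level of the 3 cholinergic markers, 16.7 CPM, of which SLC18A3, the vesicular acetylcholine transporter, was the most abundant at 10.6 CPM. In NAMs that sum was 0.186 to 3.53 CPM. The part of such cells in the VIP level was not tested.

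Between group 1 and group 2, 0 of the 5 neuropeptide genes were called by edgeR's QL test, where 6.92% of 14666 genes were (3.97% higher and 2.95% lower in group 1). Of the 5, 0 had an unadjusted p under 0.05, and DESeq2 and the Mann-Whitney U-test also called 0. The log2 fold change of GAL, group 1 over group 2, was -2.15 (SE 1.23, QL adjusted p = 0.347, 95% confidence interval -4.56 to 0.26). Without PPGL group 1 sample 5, which had the highest GAL level of its group, it was -4.64 and passed (QL adjusted p = 0.0553). For PENK the log2 fold change was -0.38 (SE 1.27, QL adjusted p = 0.902, 95% confidence interval -2.88 to 2.11), an interval wide enough to hold large differences in either direction. Without PPGL group 1 sample 6, which had the highest PENK level of the series, the PENK value was -1.33 and did not pass. The values of NPY, VIP and TAC1 were 0.35, 1.26 and 0.07, with QL adjusted p of 0.907, 0.594 and 0.986. Their directions rested on single tumors: NPY was at -1.40 without sample 1 of group 1, VIP at -1.10 without sample 6 of group 1, and TAC1 between -0.79 and 1.16 over the samples left out.

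Levels of different genes can be compared per kilobase of exon. In NAMs the median per kilobase was 9859 CPM for PENK, 24.9 CPM for TAC1, 5.09 CPM for NPY, 1.37 CPM for VIP and 0.709 CPM for GAL. PENK stood apart from the other genes in every NAM, whereas TAC1 and NPY, NPY and VIP, and VIP and GAL overlapped in range. In group 2 the order was PENK (34766 CPM), GAL (21.7), TAC1 (1.62), VIP (1.25) and NPY (0.740), and in group 1 it was PENK (25850 CPM), GAL (3.62), NPY (1.48), TAC1 (0.0962) and VIP (0.0759). In both tumor groups each gene overlapped its neighbor in this order in range, PENK and GAL included. By these medians GAL stood last of the 5 in NAMs and next to PENK in both tumor groups. In single samples, PENK was the highest per kilobase in 10 of 10 NAMs, 12 of 12 tumors of group 2 and 5 of 7 of group 1, and GAL was the highest in the other two, the tumors with almost no PENK. GAL was second in 9 of 12 tumors of group 2 but in 1 of 7 of group 1, where TAC1 was second in 3 and NPY in 2. By its median per kilobase PENK ranked 7 among all genes tested in NAMs and 1 in each tumor group.

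Of the 10 pairs of the 5 genes over the 19 PPGLs, none had an adjusted p under 0.05. Over all 19, the largest value was that of PENK and VIP, with a Pearson r of 0.47 (permutation p = 0.0416, Benjamini-Hochberg adjusted 0.416) and a Spearman rho of 0.50 (permutation p = 0.0299, adjusted 0.299). Without the 2 tumors farthest from the PENK median, r was 0.30, and within group 1 and group 2 it was 0.51 and 0.20. With the 2 tumors farthest from the median of the first gene of a pair left out, PENK and NPY had an r of -0.51 (-0.01 over all 19, 0.33 in group 1 and -0.57 in group 2), GAL and VIP -0.42 (-0.65 in group 1 and -0.22 in group 2) and NPY and TAC1 0.40, so the order of the pairs rested on few tumors. In the 10 NAMs, also 10 pairs, PENK and NPY had an r of 0.84 (permutation p = 0.00152, adjusted 0.0152) and a rho of 0.73 (permutation p = 0.0210, adjusted 0.210). Its r was 0.64 without the 2 farthest NAMs, samples 3 and 10. Sample 3 also had the highest chromaffin marker sum of the NAMs, 97042 CPM, and its cortical marker sum was 27543 CPM. The part of the chromaffin content of a sample in that relation was not tested.

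The 3 genes whose log2 levels were most like those of PENK over the 19 PPGLs, out of 12338 searched, were IMPG1, SDR16C5 and PSAP, with Pearson r of 0.94, 0.92 and 0.91. These rested in large part on the 2 tumors with almost no PENK, since r was 0.62, 0.68 and 0.64 without the 2 farthest samples, and rho was 0.58, 0.88 and 0.57. SDR16C5 lies 78234 bases from PENK on the same chromosome. The genes most like GAL were TMEM184C (r = 0.78), LGR4 (0.76) and MMACHC (0.76). Those most like NPY were TSPAN6 (0.78), TIMM50 (0.76) and SLC41A3 (0.76). For VIP they were TXNDC5 (0.84), SRPRA (0.82) and PEBP4 (0.81), and for TAC1 they were NRIP3 (0.74), TGFBRAP1 (0.69) and NHS (0.69). In the NAMs r was 0.31, 0.75 and 0.81 for the 3 genes of PENK in that order, 0.75, 0.41 and 0.38 for those of TAC1 and 0.45, 0.46 and -0.23 for those of VIP, while it was -0.29 to -0.74 for the genes of GAL and -0.51 to -0.64 for those of NPY. These likenesses are a description over the tumors, with no p.

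Other peptides, receptors and enzymes of these systems were taken from 7 lists of 46 genes, of which 40 were found by name. In PPGLs against NAMs 27 could be tested, and 8 were higher and 2 lower, which is 37.0% called beside 37.5% of all genes. Between the tumor groups 4 of 28 were higher in group 1 and 4 lower, 28.6% beside 6.92% of all genes. Of these 8 calls, 0 held with the cortical covariate and 2 by the Mann-Whitney U-test, those of NPY1R and DPP4. NPY5R, among the 4 lower, passed the low-count filter only through tumors of group 2, so its call is no test. Against NAMs, 6 of 29 were higher and 5 lower in group 1 (37.9% beside 35.1% of all genes), and 7 were higher and 2 lower in group 2 (31.0% beside 32.9%). Of these calls, those of NPY5R in group 2, GALR3 in both groups and OPRD1 in group 1 are no test. The call of GALR3 in PPGLs is no test either. These genes passed the low-count filter wholly or largely through the samples where they were high. With the cortical covariate 4 of the 10 PPGL calls, 0 of the 11 calls in group 1 and 2 of the 9 in group 2 held. POMC, PNOC, GALP, GALR1, GALR2, NPY2R, GHRH, TAC4, TACR2, TACR3 and MME had too few counts to be tested in any comparison.

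**Figure D2:**
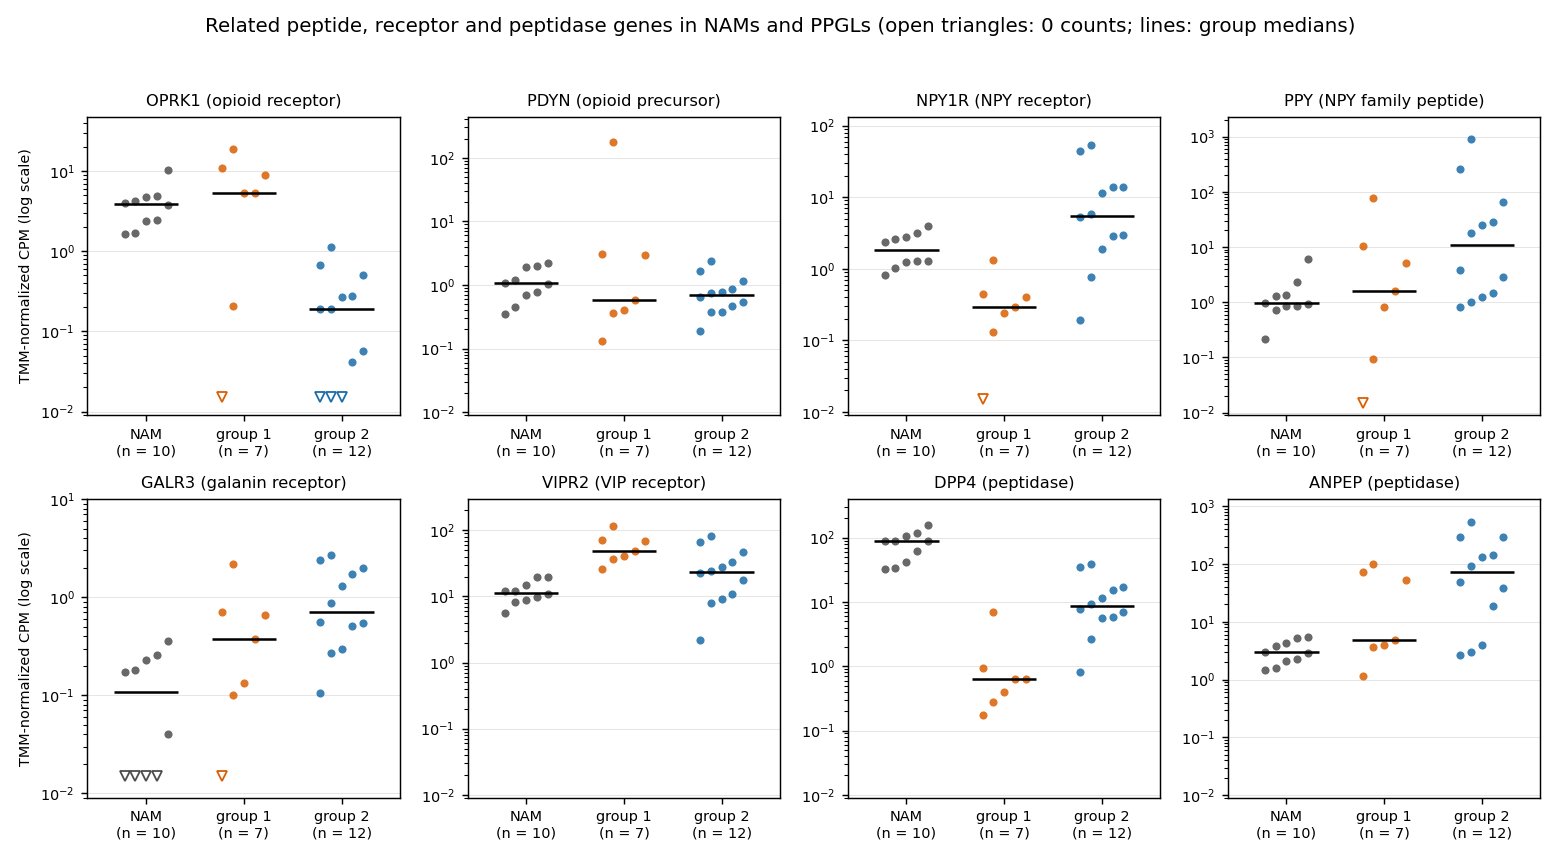
Each point is 1 sample, placed by group and by TMM-normalized CPM on a logarithmic axis, for 8 genes of peptide precursors, receptors and peptidases; the line is the group median and open triangles are samples with 0 counts. OPRK1 lay below every NAM in 12 of 12 tumors of group 2, and DPP4 lay below every NAM in 17 of 19 PPGLs.

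Among the opioid genes, OPRK1, the kappa receptor, which binds dynorphins best, differed most clearly between the tumor groups. Its lowest, median and highest levels were 1.66, 3.92 and 10.2 CPM in NAMs, 0, 5.31 and 19.2 CPM in group 1 and 0, 0.190 and 1.14 CPM in group 2. All 12 tumors of group 2 lay below every NAM, while group 1 spanned the range of NAMs and beyond. OPRK1 was higher in group 1 than in group 2 by a log2 fold change of 4.67 (SE 0.97, QL adjusted p = 0.0156), and fell in group 2 against NAMs, with -3.83 (SE 0.77, QL adjusted p = 0.000454). With the cortical covariate both calls were lost (7.37, QL adjusted p = 0.131, and -2.83, QL adjusted p = 0.109), and the Mann-Whitney U-test gave an adjusted p of 0.239 between the groups. Against NAMs the group 1 value was 0.82 (QL adjusted p = 0.439). The PPGL value was -0.52 (QL adjusted p = 0.677), and in the fit with the covariate it was -4.62 and passed (QL adjusted p = 0.0166).

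PDYN, the precursor of the dynorphins, was called higher in PPGLs (3.11 on the log2 scale, QL adjusted p = 0.0363), in group 1 against group 2 (4.96, QL adjusted p = 0.0200) and in group 1 against NAMs (4.47, QL adjusted p = 0.000803). All 3 calls were lost with the cortical covariate, at -2.35, 4.47 and 3.27 (QL adjusted p = 0.200, 0.481 and 0.638). The values rested on 1 tumor. PPGL group 1 sample 2 had 177 CPM, the next tumor had 3.03 CPM and NAMs had 0.357 to 2.21 CPM. Neither DESeq2 (adjusted p = 0.626 and 0.699) nor the Mann-Whitney U-test (adjusted p = 0.511 and 0.943) called PDYN in PPGLs or between the groups. Without that tumor PPGLs were at -0.26 against NAMs (QL adjusted p = 0.661) and group 1 at 0.55 against group 2 (QL adjusted p = 0.664) and 0.0835 against NAMs (QL adjusted p = 0.923). The PPGL call was also lost without any 1 of NAM samples 1 and 5 to 10, where the value was 3.01 to 3.12 (QL adjusted p = 0.0528 to 0.0602). The tumor with the high PDYN level is the one that had 7 counts of PENK, and it had the highest OPRK1 level of the series.

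OPRM1, the mu receptor for enkephalins and endorphins, lay below every NAM in 14 of 19 PPGLs, with levels of 0 to 14.5 CPM in group 1 and 0 to 11.3 CPM in group 2 against 2.85 to 17.7 CPM in NAMs. Its log2 fold change of -1.73 did not pass (SE 0.82, QL adjusted p = 0.0983), while the Mann-Whitney U-test gave an adjusted p of 0.00455. It passed without sample 4 of group 1 (-2.22, QL adjusted p = 0.0292) or sample 4 of group 2 (-2.07, QL adjusted p = 0.0473). OPRD1, the delta receptor, which binds enkephalins best, was near the limit of detection, with a highest level of 1.499 CPM in NAMs. Its value in group 1 against NAMs was -2.33 (SE 0.73, QL adjusted p = 0.0142), but with the cortical covariate it was 1.06 (QL adjusted p = 0.869). OPRD1 passed the low-count filter only through NAMs and sample 2 of group 2. Its call in group 1 is thus a description and no test. In group 2 the value was -1.35 and did not pass. The nociceptin receptor OPRL1 was at 0.51 in PPGLs (QL adjusted p = 0.0649) and passed without any 1 of samples 1, 4 and 6 of group 1 and 11 and 12 of group 2 (QL adjusted p = 0.0333 to 0.0491). OPRM1, OPRL1, TACR1, LNPEP and PNMT overlap other genes, the last 3 on the same strand. How reads of such pairs were counted is not stated, nor is the strand setting, so they cannot be told apart.

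Among the receptors of neuropeptide Y, NPY1R, the Y1 receptor, ran from 0.818 to 3.93 CPM in NAMs (median 1.85), from 0 to 1.32 CPM in group 1 (median 0.292) and from 0.190 to 53.4 CPM in group 2 (median 5.50). It lay below every NAM in 6 of 7 tumors of group 1 and above every NAM in 7 of 12 of group 2. The log2 fold change of group 1 over group 2 was -4.99 (SE 1.09, QL adjusted p = 0.0196), and -5.66 without PPGL group 1 sample 2. Against NAMs NPY1R fell in group 1, with -2.34 (QL adjusted p = 0.0299, and up to 0.0564 with 1 sample left out), and rose in group 2, with 2.66 (QL adjusted p = 0.00452).

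NPY5R, the Y5 receptor, had 0 counts in 7 of 7 tumors of group 1 and 0 to 5.77 CPM in group 2, with 6 of 12 above every NAM. Its mean of 1.95 CPM in group 2 was at least 14.96-fold higher than the mean limit of 0.131 CPM in group 1, set at 3 counts per library. Between the groups NPY5R passed the low-count filter only through tumors of group 2. Its p-values there are thus a description and no test (QL adjusted p = 0.0285, Mann-Whitney adjusted p = 0.131). Against NAMs its log2 fold change in group 2 was 3.45 (QL adjusted p = 0.0111). There too it passed the low-count filter largely through tumors of group 2, so this p-value is likewise a description and no test. With the cortical covariate all these calls of NPY1R and NPY5R were lost, at QL adjusted p of 0.1103 and 0.1248 between the groups. The NPY1R values in that fit were -6.06 between the groups, -3.91 in group 1 and 1.93 in group 2, and that of NPY5R in group 2 was 2.95. In the same fit NPY1R became called in PPGLs against NAMs (3.88, QL adjusted p = 0.0449, against 2.03 and 0.0761 without the covariate). PPY, the pancreatic polypeptide precursor of the same family, rose in PPGLs by a log2 fold change of 5.57 (SE 1.41, QL adjusted p = 0.00278). PPY ran from 0.218 to 5.97 CPM in NAMs, 0 to 77.9 CPM in group 1 and 0.812 to 922 CPM in group 2, and was above every NAM in 8 of 19 tumors. Without PPGL group 2 sample 9, the highest, its log2 fold change was 4.14, and by the Mann-Whitney U-test its adjusted p was 0.0957.

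GALR3, the 1 galanin receptor with enough counts, had a log2 fold change of 2.83 in PPGLs (SE 0.74, QL adjusted p = 0.00349). It had at most 9 counts in a NAM and passed the low-count filter only through tumors. Its p-values against NAMs are thus a description and no test. Its level was low throughout, 0 to 0.354 CPM in NAMs, 0 to 2.19 CPM in group 1 and 0.106 to 2.70 CPM in group 2. It lay above every NAM in 13 of 19 tumors, 4 of group 1 and 9 of group 2. The values against NAMs were 2.19 in group 1 (QL adjusted p = 0.0379) and 3.098 in group 2 (QL adjusted p = 0.00295), and with the cortical covariate they were 1.56 and 2.84 and did not pass (QL adjusted p = 0.817 and 0.0846), while the PPGL value was 3.28 and passed (QL adjusted p = 0.0169). Without a low-count filter the group 1 value was 2.17 (QL adjusted p = 0.0565), and without sample 3 of that group it was 1.32 (QL adjusted p = 0.220). The group 1 call was also lost without any 1 of NAM samples 1, 2, 5, 7 and 9 and of samples 1 and 6 of group 1. The value was then 2.04 to 2.16 (QL adjusted p = 0.0531 to 0.0597).

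VIPR2, a receptor that VIP and PACAP share, ran from 5.55 to 19.8 CPM in NAMs (median 11.4), from 26.3 to 118 CPM in group 1 (median 48.4) and from 2.18 to 83.4 CPM in group 2 (median 23.4). All 7 tumors of group 1 were above every NAM, as were 7 of 12 of group 2. It rose in PPGLs by a log2 fold change of 1.72 (SE 0.43, QL adjusted p = 0.00223), and the difference of the groups, 1.01, did not pass (QL adjusted p = 0.273). The PPGL value was 0.77 with the cortical covariate (QL adjusted p = 0.289). VIPR1, the other VIP receptor, was at 0.98 (QL adjusted p = 0.152), and ADCYAP1R1, the receptor selective for PACAP, at -0.28 (QL adjusted p = 0.566). TACR1, the substance P receptor, was at 1.36 in PPGLs (QL adjusted p = 0.154) and was called higher in group 1 against NAMs (2.35, QL adjusted p = 0.0198), where the highest tumor, sample 5, had 9.33 CPM and the next 2.52 CPM. That value was 1.01 without sample 5 (QL adjusted p = 0.296) and -3.93 with the cortical covariate (QL adjusted p = 0.417).

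Of the 8 tested genes that process precursors, 2 were higher in PPGLs and none lower, where 37.5% of all genes were called, with a median log2 fold change of -0.01 beside 0.13 for all genes. These were QPCT, which closes the amino end of some peptides to pyroglutamate (0.84, SE 0.24, QL adjusted p = 0.00664), and RNPEP, a peptidase for basic residues (0.37, QL adjusted p = 0.0411). Their values were 0.43 and 0.38 with the cortical covariate, and neither passed (QL adjusted p = 0.378 and 0.204). The call of RNPEP was lost in 16 of the 29 fits that left out 1 sample, where the largest QL adjusted p was 0.0767. The convertases PCSK1 and PCSK2, the inhibitor PCSK1N, the chaperone SCG5 and the amidating enzyme PAM were not called in any of the comparisons.

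CPE, the carboxypeptidase that trims the fragments, was lower in group 1 than in group 2 (-1.18, SE 0.32, QL adjusted p = 0.0453) and than in NAMs (-1.06, SE 0.29, QL adjusted p = 0.00557). It ran from 218 to 546 CPM in NAMs, from 136 to 223 CPM in group 1 and from 110 to 671 CPM in group 2. The values were -0.93 and -1.09 with the cortical covariate and neither passed (QL adjusted p = 0.648 and 0.581), and the Mann-Whitney U-test gave an adjusted p of 0.155 between the groups.

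Among the 8 tested peptidases that break neuropeptides down, 2 rose and 2 fell in PPGLs, where 37.5% of all genes were called (22.3% higher, 15.2% lower), with a median log2 fold change of -0.02. ANPEP, aminopeptidase N, which removes the first residue of enkephalins, rose by a log2 fold change of 4.92 (SE 0.94, QL adjusted p = 0.000199). Its lowest, median and highest levels were 1.48, 2.97 and 5.40 CPM in NAMs, 1.18, 4.92 and 99.7 CPM in group 1, and 2.70, 71.7 and 530 CPM in group 2. ANPEP was above every NAM in 3 of 7 tumors of group 1 and 9 of 12 of group 2. The difference of the groups, -1.95, did not pass (QL adjusted p = 0.321).

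DPP4, which shortens neuropeptide Y and other peptides by a pair of residues, fell in PPGLs, with -3.23 (SE 0.61, QL adjusted p = 0.000191). Its lowest, median and highest levels were 32.3, 88.4 and 159 CPM in NAMs, 0.175, 0.626 and 7.08 CPM in group 1 and 0.818, 8.52 and 38.7 CPM in group 2. All 7 tumors of group 1 and 10 of 12 of group 2 were below every NAM, and group 1 was lower than group 2 (-3.17, SE 0.82, QL adjusted p = 0.0388). Without sample 7, the highest of group 1, that value was -4.63. With the cortical covariate its value in PPGLs was -1.57 (QL adjusted p = 0.0779) and between the groups -0.39 (QL adjusted p = 0.976).

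LNPEP, which cleaves oxytocin and other peptides, rose in PPGLs (0.80, QL adjusted p = 0.0230, Mann-Whitney adjusted p = 0.0616), and ECE1, an endothelin-converting enzyme that also degrades substance P, fell (-0.59, QL adjusted p = 0.0477). The call of ECE1 was lost in 18 of the 29 fits that left out 1 sample, with a largest QL adjusted p of 0.0928, and with the cortical covariate (-0.28, QL adjusted p = 0.621). In group 1 against group 2, DPP3, which degrades enkephalins, was called higher at 0.61 (QL adjusted p = 0.0813). ACE, the angiotensin-converting enzyme, was called higher there at 1.60 (QL adjusted p = 0.0812). These calls were lost in 9 and 13 of the 19 fits that left out 1 tumor, with a largest QL adjusted p of 0.187 and 0.166, and the DPP3 value was 0.28 with the cortical covariate (QL adjusted p = 0.873). Without PPGL group 2 sample 9 the ACE value was 2.27. In the fit with the cortical covariate it was -0.54 (QL adjusted p = 0.928), and ACE became called lower than in NAMs in PPGLs (-1.97, QL adjusted p = 0.00696) and in group 2 (-2.20, QL adjusted p = 0.0258).

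Markers of other cells moved with the comparisons too, beside 22.3% of all genes called higher and 15.2% lower in PPGLs. Among chromaffin markers, PHOX2A, a regulator of catecholamine genes, rose in PPGLs by 2.17 (QL adjusted p = 1.75e-07), SYP, a vesicle protein, by 0.98 (QL adjusted p = 0.00236, and 0.66 with QL adjusted p = 0.161 in the fit with the cortical covariate), and PNMT fell, with -1.94 (QL adjusted p = 0.0177, and -2.75 without PPGL group 1 sample 2), while 8 of 11 were not called by the QL test and the Mann-Whitney U-test called SLC18A1 of these (adjusted p = 0.0230). The 7 tested Schwann and sustentacular cell markers were not called, with summed levels of 60.7 to 179 CPM in NAMs, 2.505 to 249 CPM in group 1 and 12.0 to 133 CPM in group 2, CDH19 the most abundant. Of 6 fibroblast markers 4 were higher in PPGLs, with COL3A1 the most abundant and sums of 266 to 658 CPM in NAMs, 154 to 2382 CPM in group 1 and 407 to 25288 CPM in group 2. Of 7 neuron and axon markers 3 were higher and 2 lower, with STMN2 the most abundant and sums of 467 to 1277 CPM in NAMs, 548 to 1097 CPM in group 1 and 80.6 to 607 CPM in group 2. Of 5 endothelial markers 3 were lower and of 7 leukocyte markers 1 was higher and 1 lower. The part of these cells in the results for peptide and receptor genes was not tested, apart from the cortical covariate.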

How the data were processed

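RNA of 10 NAMs and 19 PPGLs (7 of group 1, 12 of group 2) was sequenced as single reads of 50 bp from stranded mRNA libraries. Alignment to CanFam3.1 was done by the authors with STAR 2.4.2a, and the authors deposited the counts over exons per Ensembl gene, not normalized, as 1 table. Neither the strand setting nor the handling of reads that match several genes is stated.

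Genes were filtered with filterByExpr (minimum count 10, minimum total 15) and scaled by TMM. The comparison of all PPGLs with NAMs used the 29 samples, that of group 1 with group 2 the 19 PPGLs, and those of each group with NAMs 1 fit of 3 groups. All used the quasi-likelihood test of edgeR 4.0.16 in R 4.3.3 (prior count of the fold change 0.125) with Benjamini-Hochberg adjustment over all genes tested. Log2 CPM had a prior count of 2. Correlations used 100000 two-sided permutations in Python 3.11.15 with scipy 1.17.1. The fits were tested on simulated data. The two-sided Mann-Whitney U-test took the normal approximation with tie correction for PPGLs against NAMs and an exact permutation of ranks between the groups. Figures were drawn with matplotlib 3.10.9.

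The genes named are the neuropeptide genes, up to 3 called genes per list and direction with the largest fold change, the receptors of the peptides, and the 3 genes most like each neuropeptide gene among those with a mean of at least 1 CPM in PPGLs. TH, DDC, DBH, PNMT, CHGB, SCG2, SLC18A1 and SLC18A3 were singled out in single samples after their values were seen. The genes and lists were chosen with earlier results of these data known.

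Alternatives were DESeq2 1.42.0 (its size factors, and its Wald test), library size alone, a filter of at least 1 CPM or none, the cortical score as a covariate, the sample number as a block, other sets of samples in the fit, the Mann-Whitney U-test, a prior count of 0.5 for correlations, and leaving out each sample in turn. The leaving out of samples from the comparisons of each group with NAMs, and of the lowest tumors from the SD of PENK, was chosen after the data were seen.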

Additional observations from a re-analysis of the deposited data

Results flagged for a closer look

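In 59 groups of 7 or 10 samples, the highest or lowest sample was compared with its neighbor by Dixon's ratio, the gap to the nearest sample divided by the range of log2 CPM, and 2 groups held a sample above the critical value at 95%. Chance alone gives such a sample in about 1 in 20 groups. PDYN in PPGL group 1 sample 2 had a ratio of 0.602, with 177 CPM beside 3.03 CPM in the next tumor. DPP4 in PPGL group 1 sample 7 had a ratio of 0.583, with 7.08 CPM beside 0.951 CPM in the next. The critical value for 7 samples is 0.568.

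A difference between the tumor groups, tested by edgeR's QL test on the log2 scale as group 1 minus group 2, singled out 8 genes. Higher in group 1 were PDYN (4.96, SE 1.09), OPRK1 (4.67, SE 0.97), ACE (1.60, SE 0.50) and DPP3 (0.61, SE 0.19). Lower in group 1 were NPY1R (-4.99, SE 1.09), DPP4 (-3.17, SE 0.82) and CPE (-1.18, SE 0.32). NPY5R was fitted at -8.46 (SE 1.87), which depends on the prior count and is no bound, since all 7 tumors of group 1 had 0 counts. It passed the low-count filter only through tumors of group 2, so its call is a description and no test. The cortical score differed as well, with a mean of 1.54 ± 1.55 (SD, n = 7) in group 1 and 7.08 ± 1.88 (SD, n = 12) in group 2.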

How the results depend on the processing

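Over the alternatives other than leaving out samples, the 5 neuropeptide genes kept direction and side of the threshold in 35 of 40 values for PPGLs against NAMs, 40 of 45 for group 1 against group 2, 35 of 40 for group 1 against NAMs and 38 of 40 for group 2 against NAMs. The call of GAL in PPGLs and in group 2 held in every one of them. Values are log2 fold changes, and the cause of each change below was not tested. With the cortical covariate the sign turned in PPGLs against NAMs for PDYN (-2.35), TACR1 (-1.83), CPE (0.49) and DPP3 (-0.44). In that fit it turned in group 1 against group 2 for PENK (0.0701), OPRL1 (-0.48), VIPR1 (0.0237), TACR1 (-1.86), ANPEP (0.72) and ACE (-0.54). In group 1 against NAMs it turned for NPY (2.70), TAC1 (3.92), OPRM1 (2.23), OPRL1 (-0.46), ADCYAP1R1 (-0.0336), TACR1 (-3.93), LNPEP (-1.23), ECE1 (0.91), ACE (-2.79), OPRD1 (1.06) and PNMT (1.82), and GAL was at 1.80 and no longer called. In group 2 against NAMs it turned for VIP (1.24), TAC1 (0.13), TACR1 (-2.34) and ECE1 (0.00815). This covariate moved the number of genes called from 5541 to 2182 in PPGLs, from 5331 to 11 in group 1 and from 5005 to 1089 in group 2 against NAMs. Between the groups edgeR then called 0 of 14666 genes (1529 at an unadjusted p under 0.05) in place of 1015. That number was 2567 with all 29 samples in the fit, 1793 by DESeq2 and 398 by the Mann-Whitney U-test. DESeq2's Wald test turned VIP (-0.73) and PDYN (-0.29) in PPGLs against NAMs and PDYN (-0.00106) in group 1 against NAMs. Library size alone turned ACE in PPGLs against NAMs (0.0260), and TAC1 (-0.10) and PHOX2A (0.00760) between the groups, and moved the median of all genes in group 1 against NAMs from 0.13 to 0.24. By the Mann-Whitney U-test NPY (-1.02 in the fit) and TAC1 (-2.23) passed in PPGLs. With a prior count of 0.5, r over the PPGLs turned to 0.0244 for PENK with NPY and 0.0192 for NPY with VIP.

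The sample numbers count different animals in each group: over 24 pairs of samples with the same number, deviations from the group means had a mean r of 0.00168 (-0.232 to 0.251). With the number as a replicate block, 47 genes were called between the groups, 4653 in PPGLs, 3936 in group 1 and 4180 in group 2 against NAMs. In that fit TAC1 passed in PPGLs (-3.47), and GAL was at 1.63 and not called in group 1 against NAMs. Signs turned under the block in PPGLs against NAMs for VIP (-1.33) and PDYN (-0.11), and between the groups for NPY (-0.89), VIP (-1.71), TAC1 (-1.14), OPRL1 (-0.25), RNPEP (-0.0767) and ECE1 (-0.0483). They turned against NAMs in group 1 for VIP (-2.16), OPRK1 (-0.16) and ADCYAP1R1 (-0.00399) and in group 2 for TACR1 (-0.17) and CPE (-0.0268).

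Leaving out 1 sample at a time, PPGLs against NAMs ranged from 1.19 to 1.66 for PENK, -1.48 to -0.82 for NPY, 4.89 to 5.82 for GAL, -0.70 to 0.67 for VIP, -2.79 to -1.60 for TAC1, -0.26 to 3.26 for PDYN and -0.0131 to 0.10 for DPP3, with 4954 to 5790 genes called. Group 1 against group 2 ranged from -1.33 to -0.16 for PENK, -1.40 to 0.74 for NPY, -4.64 to -1.67 for GAL, -1.10 to 1.67 for VIP, -0.79 to 1.16 for TAC1, -0.57 to 1.63 for OPRM1, -0.23 to 0.25 for OPRL1, -0.20 to 0.25 for ECE1 and -0.27 to 0.0518 for PHOX2A. The number of genes called between the groups was 525 without PPGL group 1 sample 7, 674 without PPGL group 2 sample 4 and at most 1218. NPY5R could be fitted in 12 of these 19 fits and TACR1 in 16. The comparisons of each group with NAMs were also refitted without each sample, an alternative added after the data were seen. OPRD1 could be fitted in 22 of these 29 fits. Group 1 then ranged from 1.18 to 4.13 for GAL, -1.52 to 1.33 for VIP, -0.0520 to 0.87 for VIPR1, -0.0173 to 0.47 for ADCYAP1R1 and -0.0156 to 0.33 for LNPEP. Group 2 ranged from -0.83 to 0.0793 for VIP, -3.35 to -1.61 for TAC1 (passed without PPGL group 2 sample 9) and -0.59 to 0.19 for TACR1. The number of genes called was 4799 to 5551 in group 1 and 4391 to 5476 in group 2. A tumor at 0 counts cannot be told from one below 0.0895 to 0.175 CPM, depending on its depth.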
